A study of Drosophila melanogaster with 6 samples.

Results

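The enzymes of trehalose and glycogen metabolism were followed through 8 genes chosen for their roles: Tps1, Treh, GlyS, GlyP, UGP, AGBE, Pgm1 and tobi. Of these, 7 were found in the deposited count table of 14869 genes by FlyBase identifier, and all 7 passed the filter on low counts. GlyS, the glycogen synthase gene, could not be matched to an identifier of that table and was not analysed here. Levels were measured by sequencing polyadenylated RNA of male larvae of Drosophila melanogaster at the wandering L3 stage, in 3 groups of 2 biological replicates. The groups were the central brain without the ventral nerve cord (30 larvae a library), fat bodies of larvae given 25 µM 4-hydroxytamoxifen (4-HT) in their food (18 larvae a library), and fat bodies of larvae raised on plain food (control; 18 larvae a library). Brain larvae also had plain food, and all animals were kept at 25 °C. Every library, controls included, was an equal pool of 6 y,w lines that carry FL.hsp70P-Dam[4-HT-intein@L127C] at ZH51C, either alone or joined to PC, H1, HP1, MRG15 or BRM. The construct puts a Dam methyltransferase with a 4-HT-dependent intein behind an hsp70 promoter, so no group is free of the transgenes and no line can be read separately.

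Trehalose, a disaccharide of glucose, is the main blood sugar of insects, and the larval fat body is its best known site of synthesis. Tps1 makes it from UDP-glucose and glucose-6-phosphate, and trehalase, the product of Treh, splits it into glucose in the cells that use it. Glycogen is stored in fat body, muscle and brain. Pgm1 interconverts glucose-6-phosphate and glucose-1-phosphate, UGP turns glucose-1-phosphate into UDP-glucose, AGBE adds the branches of the glycogen chain, and GlyP releases glucose-1-phosphate from it. The alpha-glucosidase gene tobi is known as a target of insulin-like peptides released from the brain.

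Total counts ran from 20687696 to 26530280 in brain, from 47054569 to 65802288 in fat body with 4-HT, and from 25860088 to 50905534 in control fat body. Values per gene are CPM, counts scaled to a common library size, over sizes adjusted by TMM (a trimmed mean of log ratios), and n = 2 for every mean and SD. The TMM factors were 2.88 and 3.05 for brain, 0.578 and 0.615 for fat body with 4-HT, and 0.586 and 0.547 for control fat body. The choice of scaling moves every brain to fat body difference: over all genes tested, the median log2 difference was 0.11 with TMM and 2.49 with library size only. Tissue differences of the named genes are therefore also given with library size only. The tissue labels were checked with markers. The neuronal marker elav stood at 204 and 245.5 CPM in brain, at 2.28 and 1.19 CPM in fat body with 4-HT, and 1.12 and 2.58 CPM in control fat body. The summed neuron list separated the tissues less, at 906 to 1111 CPM in brain, 608 to 694 CPM with 4-HT and 552 to 613 CPM in control fat body. That fat body sum was nearly all Syt1, at 607 to 687 CPM with 4-HT and 549 to 608 CPM in control fat body. The summed glia list did not set brain above fat body. It came to 344 to 429 CPM in brain, 527 to 614 CPM with 4-HT and 408 to 498 CPM in control fat body. The glial marker repo stood at 33.8 and 37.8 CPM in brain and at 0.462 and 0.179 CPM in control fat body. Eaat1 and Gs2 went the other way, with Eaat1 at 85.9 and 74.4 CPM in brain and 247.5 and 362 CPM in control fat body. The 8 fat body markers held 0.110% and 0.159% of counts in brain, 51.4% and 48.7% in fat body with 4-HT, and 51.2% and 53.6% in control fat body. Control replicate 1 stood apart in salivary gland genes, whose 10 markers summed to 1834 CPM there against 2.12 CPM in control replicate 2. Their sums were 64.2 and 0.681 CPM in brain, with 2.91 and 2.82 CPM in fat body with 4-HT. In bulk tissue, fewer cells of a type and less RNA per cell cannot be told apart.

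In the comparison of brain with control fat body, the trehalose genes differed by very unequal amounts. Tps1 (FBgn0027560) was at 0.151 and 0.445 CPM in brain, on 9 and 36 counts, against 858 and 983 CPM in control fat body. Its transcript was close to absent from brain and among the more abundant ones in fat body, ranking 260 and 221 of 12419 detected genes by CPM per kilobase of exon in the control libraries. The difference was -11.53 on the log2 scale with a standard error (SE) of 0.572 (edgeR adjusted p = 9.24e-06), and -12.48 without brain replicate 2 (adjusted p = 2.08e-04). With library size only it was -9.13 (edgeR adjusted p = 7.58e-06). The brain level came to 0.0164% and 0.0484% of the control fat body mean in replicates 1 and 2. For the fat body storage protein gene Lsp2 the same shares were 0.0165% and 0.0295%, and for Lsp1gamma 0.0169% and 0.0342%. Lsp1beta had 0.0137% and 0.026%, and Fbp1 0.0245% and 0.0326%. Lsp1alpha and Fbp2 hardly differed between the brain replicates, at 0.0266% and 0.0288% and at 0.0214% and 0.022%. For AkhR, the adipokinetic hormone receptor gene, they were 0.0318% and 0.0235%. Another fat body marker, apolpp, stood higher at 0.846% and 0.951%. The part of carried-over fat body RNA in the Tps1 trace was not tested.

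Trehalase differed far less than the synthase. Treh (FBgn0003748) stood at 47.0 and 45.0 CPM in brain, compared with 91.6 and 127 CPM in control fat body. Both brain libraries lay below both control libraries, with a log2 fold change of -1.25 (SE 0.211, edgeR adjusted p = 0.00184). With library size as the only scaling the sign turned: Treh then stood at 135 and 137 unscaled CPM in brain compared with 53.7 and 69.8 in control fat body, a log2 fold change of 1.14 (edgeR adjusted p = 8.92e-04). Under other scalings between libraries, RLE and upper quartile, the log2 fold change stayed negative, at -1.26 and -0.92. The direction of Treh between the tissues thus rested on whether libraries were scaled beyond their size. Treh shares 12.8% of its exon bases with Rbpn-5 on the other strand, which stood at 22.4 and 23.7 CPM in brain and at 15.0 and 14.1 CPM in control fat body. The ratio of Treh to Tps1 per kilobase of exon, which no scaling between libraries can alter, was 208 and 67.5 in brain and 0.0714 and 0.0867 in control fat body.

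The alpha-glucosidase gene tobi (FBgn0261575) was low in all libraries. It had 0.0672 and 0.359 CPM in brain, on 4 and 29 counts, against 3.43 and 2.15 CPM in control fat body, on 52 and 60 counts. The groups did not overlap, and the log2 fold change was -3.64 (SE 0.921, edgeR adjusted p = 0.0110). The brain replicates differed 5.34-fold. The call was lost without brain replicate 1 (-2.90, adjusted p = 0.0519) or control replicate 1 (-3.26, adjusted p = 0.0522), and with library size only (-1.27, adjusted p = 0.244). Without brain replicate 2 the value was -5.23 (adjusted p = 0.0159).

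**Figure D1:**
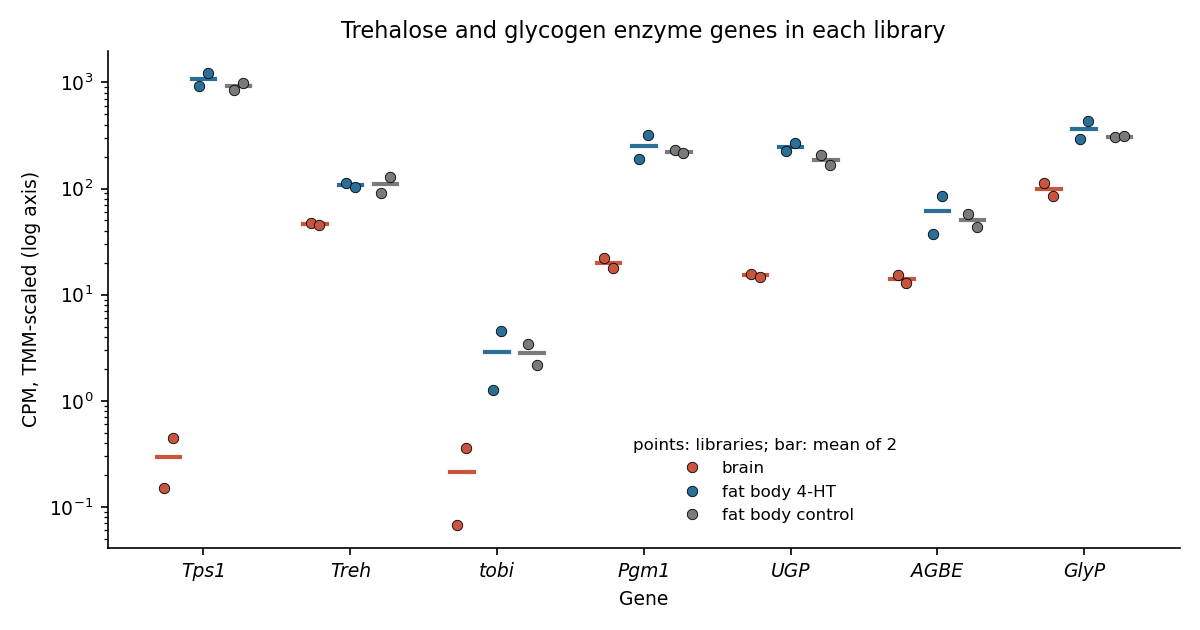
Level of each enzyme gene in every library, as TMM-scaled CPM on a log axis; points are the 2 libraries of a group and bars their mean. Brain points lie below both fat body groups for all 7 genes, from a Tps1 mean of 0.298 CPM in brain against 920 CPM in control fat body to a Treh mean of 46.0 CPM in brain against 109.5 CPM in control fat body.

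The enzymes that feed glucose-1-phosphate into UDP-glucose were lower in brain by similar amounts. Pgm1 (FBgn0003076), phosphoglucomutase, stood at 22.0 and 17.7 CPM in brain, compared with 229 and 216 CPM in control fat body, a log2 fold change of -3.49 (SE 0.309, edgeR adjusted p = 9.57e-05). UGP (FBgn0035978), UDP-glucose pyrophosphorylase, stood at 15.8 and 14.75 CPM in brain, compared with 209 and 166.5 CPM in control fat body, a log2 fold change of -3.62 (SE 0.225, edgeR adjusted p = 2.10e-05). With library size only both stayed lower in brain, at -1.11 (adjusted p = 0.00988) and -1.24 (adjusted p = 0.00138). The ratio of Pgm1 to UGP per kilobase was 2.28 and 1.96 in brain and 1.79 and 2.12 in control fat body, and these ranges overlapped. UGP shares 21.4% of its exon bases with PGRP-LF and CG32040 on the other strand, and the setting for strand in counting is not given in the sources used here. Those genes had at most 2 and 5 counts in a brain library and at most 28 and 10 in a control library, where UGP had at least 3164.

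The branching enzyme and phosphorylase genes, which act on glycogen itself, differed less. AGBE (FBgn0053138), which makes branch points, stood at 15.3 and 12.8 CPM in brain, compared with 57.95 and 43.5 CPM in control fat body (log2 fold change -1.85, SE 0.393, edgeR adjusted p = 0.00527). Without brain replicate 2 its call was lost (-1.66, adjusted p = 0.0525). GlyP (FBgn0004507), glycogen phosphorylase, stood at 112 and 84.6 CPM in brain, compared with 305 and 313 CPM in control fat body (log2 fold change -1.65, SE 0.259, edgeR adjusted p = 0.00133). Neither gene overlapped between the groups, but both turned sign with library size only, to 0.52 for AGBE (adjusted p = 0.258) and 0.73 for GlyP (adjusted p = 0.0312). Muscle also stores glycogen, and its 9 markers summed to 25.3 and 32.4 CPM in brain and to 307 and 626 CPM in control fat body. Most of the control sum was bt, with 249 and 580.5 CPM, and the other markers differed less between the tissues. Levels of sls overlapped (brain 8.02 and 13.7 CPM, control 6.73 and 8.58 CPM). Act57B, up, Mlc1 and Mlc2 were lower in brain, but unlike bt they were higher in control replicate 1 than in control replicate 2. For Act57B the levels were 6.25 and 3.90 CPM (brain) and 16.3 and 13.5 CPM (control). The 7 hemocyte markers summed to 34.8 and 32.55 CPM in brain and to 545 and 591 CPM in control fat body. Most of the fat body sum was srp, at 0.285 CPM in each brain library and at 375 and 549 CPM in control fat body. The hemocyte sum thus mainly followed srp, which was the higher in control replicate 2. Control replicate 1 was also the higher control library for the other hemocyte markers, with 48.6 CPM of Hml against 16.15 CPM in control replicate 2, and 55.9 CPM of Pxn against 10.05 CPM. Of these only Pxn lay between the control values in brain, at 30.2 and 27.5 CPM, and the rest were lower there. The part of either cell type in these differences was not tested. As a share of unscaled counts GlyP was higher in brain, at 323 and 258 unscaled CPM compared with 179 and 171 in control fat body.

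All 7 genes were called lower in brain at an edgeR adjusted p under 0.05, where 34.5% of the 10029 genes tested were called lower and 35.5% higher, 70.0% in all. Likewise, both brain libraries lay below both control libraries for all 7, as for 41.4% of genes tested. The 7 genes were chosen with earlier results of these data known, so these counts describe them and do not test them as a set. The median log2 fold change was -3.49 over the 7 genes and 0.11 over all genes tested. With library size only the split was 3 lower (Tps1, Pgm1 and UGP) and 2 higher (Treh and GlyP), with 2 not called. With the median of all genes then at 2.49, each of the 7 genes lay below the median under both scalings. Treh, the nearest to it, lay at -1.36 relative to the median with TMM and at -1.35 with library size only. A change of scaling shifts all genes and their median by nearly the same amount. Agreement between the scalings on this position was therefore set in advance and is no check of the calls. Without control replicate 1, the library with the most salivary gland RNA, the log2 fold changes ran from -11.60 for Tps1 to -1.44 for Treh. In the authors' deposited table all 7 genes had an adjusted p under 0.05 for this comparison, where 39.8% of genes with an adjusted p did. The authors' log2 fold changes in that table ran from -11.56 for Tps1 to -1.21 for Treh.

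**Figure D2:**
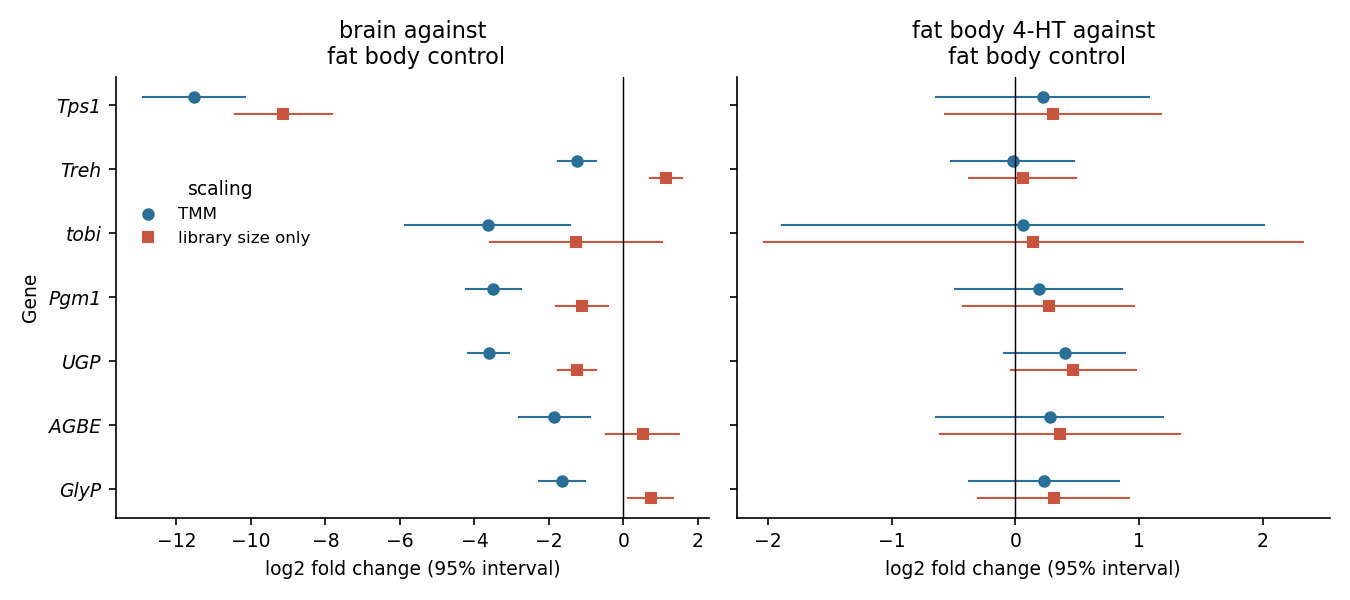
Log2 fold changes of the 7 genes with 95% intervals, for brain against control fat body (left) and fat body with 4-HT against control fat body (right); circles use TMM scaling and squares library size only. On the left the point estimates of Treh, AGBE and GlyP change side between the scalings while those of Tps1, Pgm1, UGP and tobi stay below 0. The tobi value with library size only was not called (-1.27, edgeR adjusted p = 0.244). On the right every interval with TMM spans 0.

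The order of the genes, by CPM per kilobase of exon, also differed between tissues. In brain GlyP came first at 31.3 ± 6.17, followed by Pgm1 at 10.8 ± 1.67 and Treh at 10.5 ± 0.328, whose ranges overlapped. AGBE (6.05 ± 0.762) and UGP (5.07 ± 0.246) came next, and Tps1 (0.102 ± 0.0713) and tobi (0.101 ± 0.0980) came last with overlapping ranges. In control fat body Tps1 led at 315 ± 30.3, ahead of Pgm1 (121 ± 4.94), GlyP (98.3 ± 1.74) and UGP (62.3 ± 9.95), each apart from the next. Treh (25.1 ± 5.80) and AGBE (21.85 ± 4.39) overlapped, and tobi was last at 1.33 ± 0.430.

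Within a library, the share of each gene in the summed CPM per kilobase of the 7 does not depend on scaling between libraries. GlyP made up 50.7% and 46.8% of the sum in brain against 15.4% and 15.1% in control fat body. Tps1 made up 0.0736% and 0.265% in brain against 46.5% and 51.2% in control fat body. Treh made up 15.3% and 17.9% in brain against 3.32% and 4.44% in control fat body. Setting Tps1 aside, GlyP per Pgm1 was 2.98 and 2.81 in brain against 0.781 and 0.849 in control fat body, and AGBE per UGP was 1.26 and 1.13 in brain against 0.360 and 0.339 in control fat body. GlyP per AGBE was 5.41 and 4.89 in brain against 3.89 and 5.31 in control fat body, and this ratio overlapped between the tissues. With 2 libraries against 2, an exact two-sided permutation test of such a ratio cannot go below p = 0.333, and none was run.

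**Figure D3:**
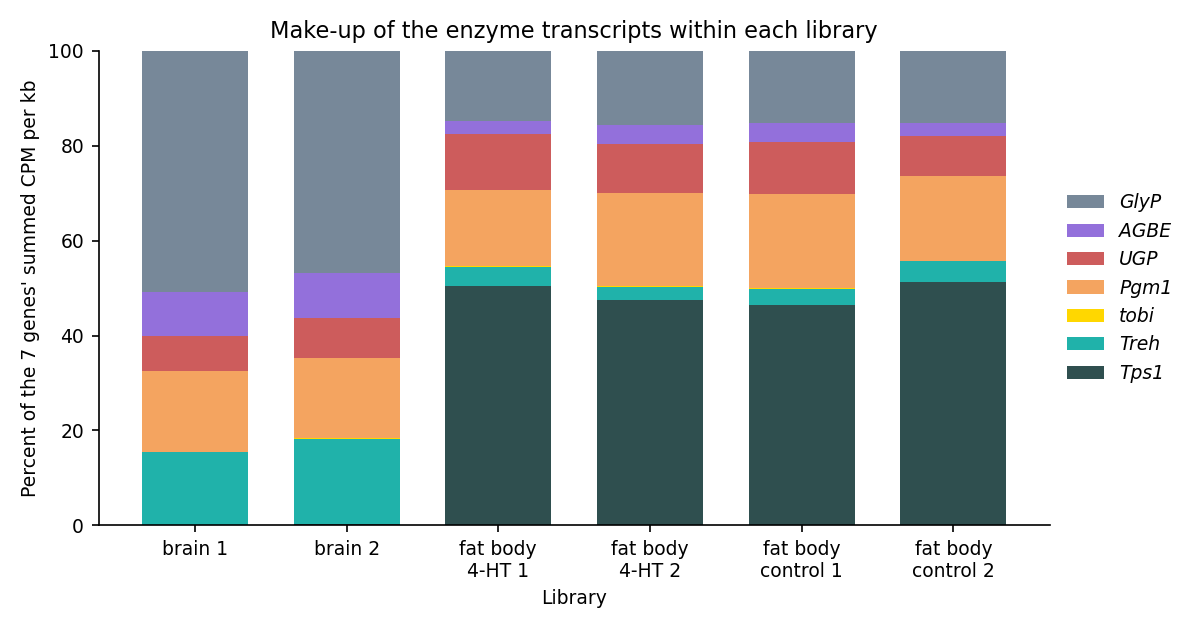
Share of each gene in the summed CPM per kilobase of exon of the 7 enzyme genes, in percent, for each library. GlyP holds 50.7% and 46.8% in brain, and Tps1 47.5% to 50.4% in fat body with 4-HT and 46.5% to 51.2% in control fat body; tobi and brain Tps1 are too small to see.

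Other genes of the pathway were taken from 5 lists with 36 members, of which 35 were in the count table and 29 were tested. The lists were chosen with earlier results of these data known, and AkhR is also on the fat body marker list. The counts that follow are therefore no independent test. In brain 25 of the 29 were called lower and 1 higher, beside the 34.5% and 35.5% of all genes, with a median log2 fold change of -3.28 against 0.11 for all genes. With library size only 16 were lower and 8 higher: Pgm2a, Hex-A, GCS2alpha, PhKgamma, sgg, babo and put were then higher in brain, as was Akh under either scaling. The log2 fold changes with library size only were -4.63 for Tret1-1, -2.76 for Tret1-2, -8.94 for Mal-A6, -3.52 for Mal-B2 and -3.20 for Mal-A5. They were 6.59 for Akh, -9.43 for AkhR, -3.03 for Gbs-70E, -5.83 for sug, -3.19 for daw and -2.48 for foxo, and all of these were called.

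Of 7 further enzymes tested, 6 were lower in brain, and 2 of those 6 (Pgm2a and Hex-A) were higher with library size only. Pgi, phosphoglucose isomerase, stood at 76.9 ± 13.1 CPM in brain, compared with 638 ± 74.9 CPM in control fat body (-3.05, edgeR adjusted p = 1.59e-04; -0.68 and adjusted p = 0.0665 with library size only). Hexokinase C (Hex-C) stood at 0.604 ± 0.143 CPM in brain, compared with 2.28 ± 0.789 CPM in control fat body (-1.89, edgeR adjusted p = 0.00583; 0.48 and adjusted p = 0.382 with library size only).

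Both trehalose transporter genes were lower in brain, also with library size only. Tret1-1 stood at 11.5 ± 1.27 CPM in brain, compared with 1509 ± 239 CPM in control fat body (-7.03, edgeR adjusted p = 4.85e-06), and Tret1-2 at 0.403 ± 0.427 CPM in brain, compared with 15.15 ± 2.28 CPM in control fat body (-5.16, edgeR adjusted p = 5.65e-04).

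Among 6 alpha-glucosidase genes tested, 5 were lower in brain, and 4 of these remained so with library size only. Mal-A6 stood at 0.104 ± 0.0425 CPM in brain, compared with 261 ± 39.8 CPM in control fat body (-11.29, edgeR adjusted p = 5.24e-06). Mal-B2 stood at 2.38 ± 0.106 CPM in brain, compared with 143 ± 0.694 CPM in control fat body (-5.91, edgeR adjusted p = 5.24e-06), and Mal-A5 at 51.5 ± 0.377 CPM in brain, compared with 2485 ± 284 CPM in control fat body (-5.59, edgeR adjusted p = 8.56e-06). Alpha-glucosidases of this family digest maltose in the gut. The 8 gut markers summed to 0.235 and 0.384 CPM in brain and to 2.44 and 2.15 CPM in control fat body. Mal-A1, of this same family, is among them, and lambdaTry had no count in these libraries.

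The glycogen regulators held the 1 gene higher in brain. Akh, the adipokinetic hormone gene of the corpora cardiaca, endocrine cells next to the brain, stood at 2.80 and 1.35 CPM in brain, on 167 and 109 counts, against 0.264 and 0 CPM in control fat body, on 4 and 0 counts. Its log2 fold change was 4.26 (edgeR adjusted p = 0.0173), and the call was lost without brain replicate 1. The receptor of this hormone showed the opposite pattern: AkhR stood at 0.0729 ± 0.0156 CPM in brain, compared with 264 ± 57.6 CPM in control fat body (-11.79, edgeR adjusted p = 4.08e-06). Gbs-70E, a glycogen-binding subunit of protein phosphatase 1, stood at 4.12 ± 0.377 CPM in brain, compared with 176 ± 14.5 CPM in control fat body (-5.42, edgeR adjusted p = 6.48e-06).

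Of 8 sugar-sensing regulators, 7 were lower in brain, 6 of them also with library size only. The zinc finger gene sug (sugarbabe), which responds to dietary sugar, stood at 0.300 ± 0.187 CPM in brain, compared with 93.6 ± 2.64 CPM in control fat body (-8.22, edgeR adjusted p = 1.87e-05). The Activin-type ligand gene daw (dawdle) stood at 10.5 ± 1.66 CPM in brain, compared with 509 ± 156 CPM in control fat body (-5.60, edgeR adjusted p = 1.51e-05). The forkhead gene foxo, a target of insulin signalling, stood at 6.33 ± 0.801 CPM in brain, compared with 187 ± 72.7 CPM in control fat body (-4.89, edgeR adjusted p = 3.49e-05).

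**Figure D4:**
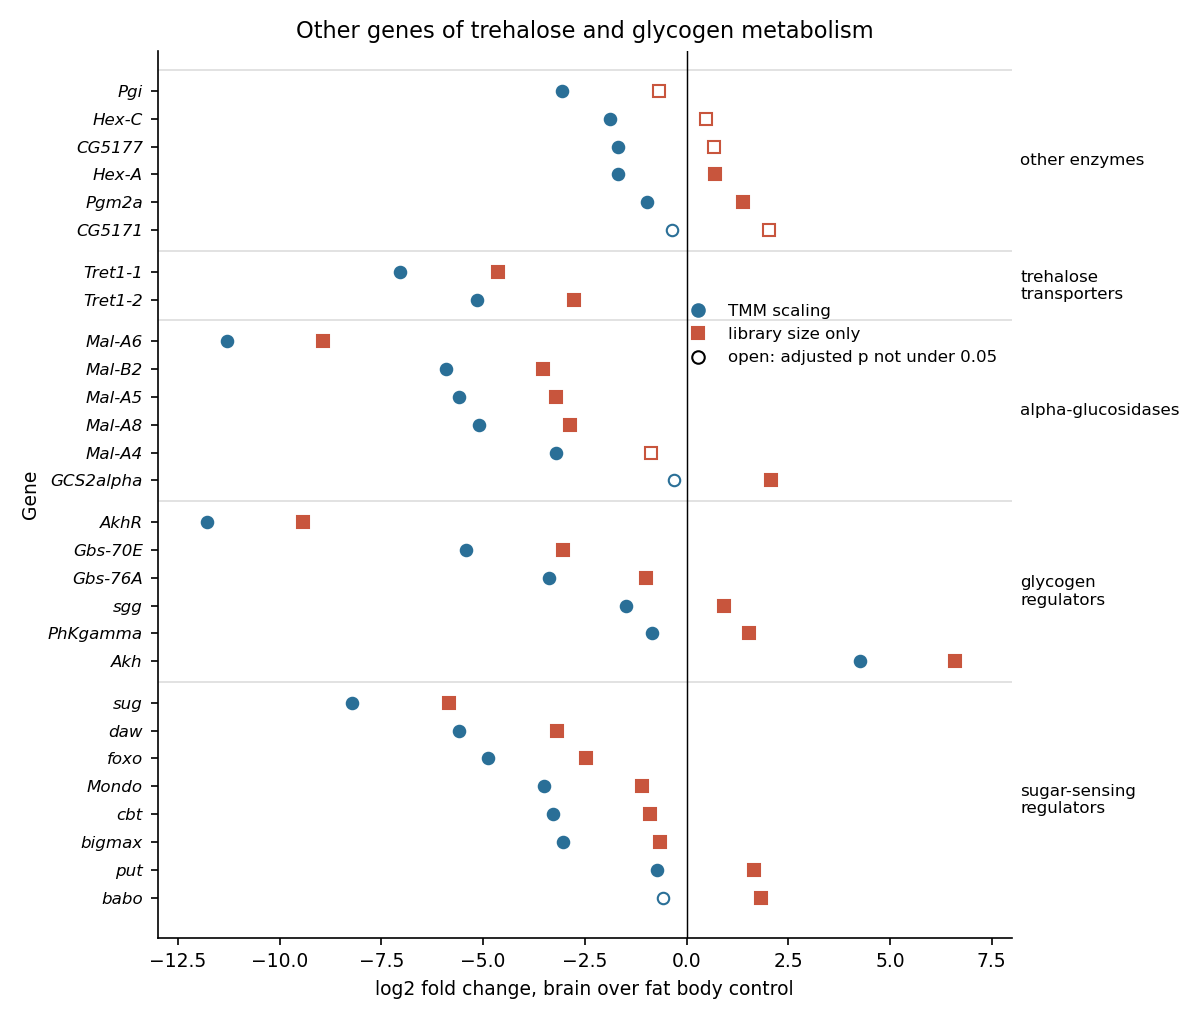
Log2 fold changes of 28 of the 29 tested pathway genes, brain over control fat body, by list; circles use TMM scaling, squares library size only, and open symbols did not pass an adjusted p of 0.05. With TMM only Akh (4.26) lies to the right of 0; with library size only 8 filled squares do.

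In the comparison of fat body with 4-HT and control fat body, which shares its control libraries with the tissue comparison, none of the 7 genes was called. By edgeR 0% of the 10029 genes tested were called, and 5.94% had an unadjusted p under 0.05, among them 0 of the 7. DESeq2 called 44 genes, 0 of the 7 among them, and the authors' deposited table gave an adjusted p under 0.05 to 3 genes and to 0 of the 7. Tps1 stood at 928 and 1218 CPM with 4-HT against 858 and 983 CPM in control fat body, a log2 fold change of 0.22 with a 95% interval of -0.64 to 1.08. Treh stood at 112 and 104 CPM with 4-HT, between the control values of 91.6 and 127 CPM (-0.02, interval -0.52 to 0.48). GlyP stood at 295 and 429 CPM with 4-HT against 305 and 313 CPM in control fat body (0.23, interval -0.38 to 0.83). Each of these intervals leaves room for a change in either direction.

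UGP was the only gene of the 7 with both 4-HT libraries above both control libraries, as for 15.5% of genes tested. It stood at 225 and 269 CPM with 4-HT against 209 and 166.5 CPM in control fat body (log2 fold change 0.40, SE 0.203, 95% interval -0.09 to 0.89, edgeR adjusted p = 0.858). AGBE, Pgm1 and tobi differed most between the 4-HT replicates. AGBE stood at 37.4 and 85.3 CPM with 4-HT against 57.95 and 43.5 CPM in control fat body (0.28, interval -0.64 to 1.19). Pgm1 stood at 189 and 318 CPM with 4-HT against 229 and 216 CPM in control fat body (0.19, interval -0.49 to 0.86), and tobi at 1.25 and 4.50 CPM with 4-HT against 3.43 and 2.15 CPM in control fat body (0.06, interval -1.89 to 2.01). In 6 of the 7 genes 4-HT replicate 2 was above 4-HT replicate 1, Treh being the exception. The muscle markers summed to 679 and 286 CPM with 4-HT and to 307 and 626 CPM in control fat body. Most of each sum was bt, at 643 and 261 CPM with 4-HT and 249 and 580.5 CPM in control fat body. With 4-HT bt was thus higher in replicate 1, unlike those 6 genes. Other muscle markers were mixed between the 4-HT replicates, with sls at 9.56 and 3.86 CPM, Act57B at 7.06 and 6.09 CPM and Prm at 2.47 and 2.57 CPM. The part of muscle in the spread was not tested. Without 4-HT replicate 2 the log2 fold changes turned to -0.43 for AGBE, -0.23 for Pgm1, -0.06 for GlyP and -1.14 for tobi. Without control replicate 1 they ran from -0.24 for Treh to 0.57 for UGP.

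The shares of Tps1 and GlyP within the 7 genes were also compared between the fat body groups. Tps1 held 50.4% and 47.5% of the summed CPM per kilobase with 4-HT against 46.5% and 51.2% in control fat body, and GlyP held 14.9% and 15.5% with 4-HT against 15.4% and 15.1% in control fat body. The genes took 0.103% and 0.149% of all counts with 4-HT against 0.103% and 0.101% in control fat body. None of the 29 other pathway genes was called by edgeR, 0 had an unadjusted p under 0.05, and DESeq2 called 0 of them. Their log2 fold changes ran from -0.81 to 1.43, with a median of 0.10 against 0.01 for all genes.

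The genes most like Tps1 over the 6 libraries, by Euclidean distance of centred log2 CPM among 4726 genes, were Cyp4s3 (0.511), a cytochrome P450 gene, and CG12116 (0.530), where the median distance was 12.9. GlyP was nearest to the small GTPase gene Rab18 (0.198) and to CG5946 (0.202), with a median of 2.36. The nearest to tobi were arg (1.18), the arginase gene, and CG6912 (1.20), with a median of 4.41. The 6 libraries fall into tissues, so these distances mainly compare the brain to fat body difference, and no test was made.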

How the data were processed

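Each gene's count is a whole number of reads per FlyBase gene, as deposited by the authors without scaling. Comparison tables deposited by the authors hold, per the file headers, a signal (group means of scaled counts), a ratio (fold change), its log2 value and a p-value. The submitters' processing notes name TopHat, HTSeq, DESeq and build dm3 and give no versions. Neither counting mode nor strand setting is given in the sources used here. Symbols (13524 of 14869 identifiers) and exon lengths came from a release 6 annotation, so no coordinates are printed.

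Genes kept by filterByExpr were tested with edgeR 4.0.16 in R 4.3.3 after TMM scaling (robust glmQLFit, then glmQLFTest). The fit took group as its single term across 6 libraries, leaving 3 residual degrees of freedom. Calls needed an adjusted p under 0.05 (Benjamini-Hochberg, 10029 genes). SE is the absolute log2 fold change, as fitted without a prior count, over the square root of F. Intervals are at 95% and centred on the reported log2 fold change, which edgeR computes with a small prior count. Alternatives were DESeq2 1.42.0, other scalings, no filter, the 4 libraries compared, a replicate block and each library left out.

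The members and lists were chosen with earlier results of these data known. All members are named, with at most 3 called genes of each list by size of difference. Pattern neighbours were the 2 nearest genes with a symbol and a mean of at least 10 CPM. Markers, overlapping genes and genes named for a change with scaling were picked after their values were seen. A single gene of the lists is counted but not reported here. The series' design text calls the replicates biological, and the labels give each its own dissected larvae.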

Additional observations from a re-analysis of the deposited data

How the results depend on the processing

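With library size only, 3 enzyme genes were lower and 2 higher in brain, and 16 other pathway genes were lower and 8 higher; Treh turned to 1.14, GlyP to 0.73 and AGBE to 0.52 on the log2 scale. Under DESeq2, RLE, upper quartile, no filter, the 4 libraries compared and the replicate block, all 7 were lower in brain. Leaving out single libraries gave 6 to 7 members lower and 0 higher, and 22 to 25 pathway genes lower and 0 to 1 higher. No pairing is given in the labels, and same-numbered replicates deviated together by r = 0.188 for brain and control and -0.137 for 4-HT and control; with the replicate block 7 members were called in brain and 0 with 4-HT, while tobi with 4-HT turned to -0.32.

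With 4-HT, Treh turned to 0.057 with library size only and 3e-04 with no filter. Without single libraries the log2 fold changes with 4-HT ran from -0.24 to 0.25 for Treh, -0.43 to 0.76 for AGBE, -0.064 to 0.48 for GlyP, -0.23 to 0.52 for Pgm1 and -1.14 to 0.71 for tobi. The genes called with 4-HT over all genes were 0 in the fit reported, 2 with no filter, 44 by DESeq2 and 0 to 38 without single libraries. The cause of these shifts was not tested beyond what the scaling itself sets. Fits that leave out a library assume that the lone sample of its group varies like the others. Depth limits tobi and brain Tps1, which rest on 4 to 60 and 9 to 36 counts in the tissue comparison.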
